A study of Mus musculus with 16 samples.

Results

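In mouse embryonic stem cells in which the adenoviral protein E1A was induced, 33 array probes for 29 genes lay above their starting level after 48 h and below it in the control harvested at the same time. They are 0.236% of the 13974 probes tested, and the 13974 probes stand for 9614 named genes. A probe was taken when its mean normalized log2 intensity at 48 h was at least 0.3 above the 0 h mean and its mean in the 48 h control was at least 0.3 below it. The probes were thus chosen by the measured differences of 48 h and of the control from 0 h, which are given below as a description with no test. Tests are given only for the arrays of 3 to 24 h, which the choice did not use.

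The samples were embryonic stem cells of a mixed C57BL/6, C3H and CD1 background, with 2 arrays in each of 8 groups. Of these, 7 groups were harvested 0, 3, 6, 9, 12, 24 and 48 h after induction of E1A. The eighth is labelled a cherry control of 48 h and carries the same treatment label as the rest. The labels do not say whether the control cells carried E1A, which promoter drove it, whether the cells were 1 clone, or whether replicates came from separate cultures, so the p-values cover only the spread among these 16 samples, part of which may be technical. The series title concerns reprogramming that is independent of Sox2. The level of the E1A transcript was not analysed here.

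E1A has no DNA-binding domain of its own. It binds the retinoblastoma family, which releases E2F transcription factors, and it binds the histone acetyltransferases p300 and CBP. Many genes of the actin cytoskeleton are controlled by serum response factor (SRF), which binds a DNA element called the CArG box, and by its actin-sensing cofactors of the MRTF family. The genes of smooth and striated muscle actin are classical SRF targets, and in cultured non-muscle cells their transcripts are known to follow the state of the cytoskeleton.

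Between 47.2% and 49.2% of all 25697 probes were detected per array, and the correlation between the arrays of a group, over the tested probes, was 0.995 to 0.997. All of the embryonic stem cell markers listed for this work (Pou5f1, Nanog, Sox2, Zfp42, Esrrb and Dppa5a) had a probe detected on all 16 arrays. Their levels differed from 0 h in both directions. The probes of Pou5f1 differed by -1.54 and -1.69 at 48 h and by -0.70 and -0.79 in the control. Zfp42 differed by -0.95 and -0.39, Nanog by 0.41 and 0.79, and Esrrb by 0.15 and 0.87. Sox2 and the brighter Dppa5a probes were lower at 48 h (-0.05 to -0.45) and higher in the control (0.09 to 0.39). Of 13 markers of feeder fibroblasts, 12 had a probe. By their probes, 3 of these genes (Acta2, Thy1 and Vim) were detected on all 16 arrays, 3 on some and 6 on none, among them Col1a2, Col3a1, Lum and Pdgfrb. The summed normalized intensity of the fibroblast probes without Acta2 was 1223 to 1444 on the arrays of 0 to 12 h, 1083 to 1107 at 24 h, 773 to 776 at 48 h and 673 to 675 in the control. Vim carried most of this sum and of its fall: its probe was at 884 to 1099 from 0 to 12 h, 436 to 447 at 48 h and 363 to 365 in the control. Without Vim and Acta2 the sum was 310 to 354 on all 16 arrays. Of the probes left in it, only that of Thy1 was detected on all 16 arrays, and the others on at most 4. Most of this sum is thus background, and its level does not show a constant share of fibroblasts. Acta2, the only gene among the 29 that is also on this marker list, is one of the genes described below, and the part of other cells in its values was not tested. In RNA from a whole culture, fewer cells of a type and less RNA per cell cannot be told apart.

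Among the 29 genes, 9 encode actins, actin-binding or contractile proteins, or belong to genes commonly named as targets of SRF or of Yap, the Hippo pathway's coactivator (Acta1, Acta2, Actc1, Tpm1, Cnn2, Tnnt1, Ccn1, Ankrd1 and Anxa2). They account for 13 of the 33 probes. This grouping was drawn up after the members were known. A CArG box was taken here as CC, then only A or T, then GG, 10 bases with no mismatch. Looser forms were not searched, so any window may hold these unmarked. Of the 27 genes with a start-site window in RefSeq (GRCm38.p6, 250 bases before to 50 after the start), 4 held a CArG box: Acta1, Cnn2, Actc1 and Mknk2. Over all 27025 genes with a window, 1.81% held one. A gene can have several windows: the 27 genes had 38 in all. Of all 32851 windows, 1.63% held a CArG box. The 4 windows are shown because 3 of the 4 genes belong to the actin group. Each is written 5′ to 3′ on the strand of its gene, with the CArG box in capitals.
Acta1: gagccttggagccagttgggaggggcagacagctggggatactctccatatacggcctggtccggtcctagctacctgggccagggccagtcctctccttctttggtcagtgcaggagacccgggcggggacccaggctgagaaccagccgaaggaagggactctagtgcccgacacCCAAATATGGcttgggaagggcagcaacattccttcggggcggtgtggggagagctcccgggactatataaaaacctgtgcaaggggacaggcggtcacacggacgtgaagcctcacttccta
Cnn2: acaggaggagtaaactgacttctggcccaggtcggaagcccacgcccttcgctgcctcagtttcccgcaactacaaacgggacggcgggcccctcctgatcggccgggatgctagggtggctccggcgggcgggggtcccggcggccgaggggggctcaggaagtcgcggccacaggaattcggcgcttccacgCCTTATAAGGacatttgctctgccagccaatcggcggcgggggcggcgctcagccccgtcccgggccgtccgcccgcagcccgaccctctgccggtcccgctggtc
Actc1: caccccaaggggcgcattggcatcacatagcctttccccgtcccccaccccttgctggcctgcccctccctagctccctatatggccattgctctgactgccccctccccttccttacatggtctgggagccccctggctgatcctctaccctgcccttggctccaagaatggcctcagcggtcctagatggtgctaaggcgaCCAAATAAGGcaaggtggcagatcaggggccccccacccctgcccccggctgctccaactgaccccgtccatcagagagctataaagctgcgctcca
Mknk2: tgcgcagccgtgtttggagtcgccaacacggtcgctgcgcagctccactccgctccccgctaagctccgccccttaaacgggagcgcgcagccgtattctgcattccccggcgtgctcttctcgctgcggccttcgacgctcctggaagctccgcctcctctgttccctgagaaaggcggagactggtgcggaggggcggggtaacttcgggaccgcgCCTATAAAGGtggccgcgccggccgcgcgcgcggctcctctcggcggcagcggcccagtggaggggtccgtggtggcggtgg
The box lay 73 to 64 bases before the start in Acta1, 56 to 47 before it in Cnn2, 47 to 38 before it in Actc1 and 32 to 23 before it in Mknk2. Acta1 lies on chr8:123894726-123895025, minus strand, Cnn2 on chr10:79988350-79988649, plus strand, Actc1 on chr2:114052826-114053125, minus strand, and Mknk2 on chr10:80676244-80676543, minus strand, by these windows. In all, 4 motifs were searched on both strands, and they were chosen after the members were known. GGAATG, the core bound by the TEAD partners of Yap, was found in 8 of the 27 genes, among them Acta1, Acta2, Ccn1, Tpm1 and Ankrd1, and in 16.6% of all genes. Of the E2F motifs, TTTCCCGC was found in 1 of the 27 genes (Cnn2) and in 1.24% of all genes, and TTTGGCGC in 0 of 27 and in 0.585%. A match describes these letters only, and binding was not measured.

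The values that chose the probes were mostly modest. The rise of 48 h over 0 h ran from 0.30 to 2.48 on the log2 scale, with a median of 0.45, and reached 1 for 3 probes (Acta1, Spen and Dyrk1b). In the control 27 probes were above background, and their difference from 0 h ran from -0.31 to -1.41, with a median of -0.58. It was -1 or lower for 5 probes (4 of Acta2 and 1 of Lpar6). The other 6 were detected on neither control array, so their differences are bounds. With these at their bound the median over all 33 was -0.55. At the bound, 0 h was at least 1.05-fold above the control for Actc1 and 1.07-fold for Ttyh3. For Ptn the 0 h mean (5.06) did not exceed the bound (5.07). A fall of 0.3 is thus not shown for Actc1, Ttyh3 and Ptn. The difference between 48 h and the control was 0.63 to 3.21 over the 27, with a median of 1.06, and the median over all 33 was 1.001 with the 6 at their bound. For all 33 probes both 48 h arrays lay above both 0 h arrays, which held for 36.4% of tested probes, and both 0 h arrays lay above both control arrays, which held for 38.8%. As the same values chose the probes, nothing is read from these counts.

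**Figure D1:**
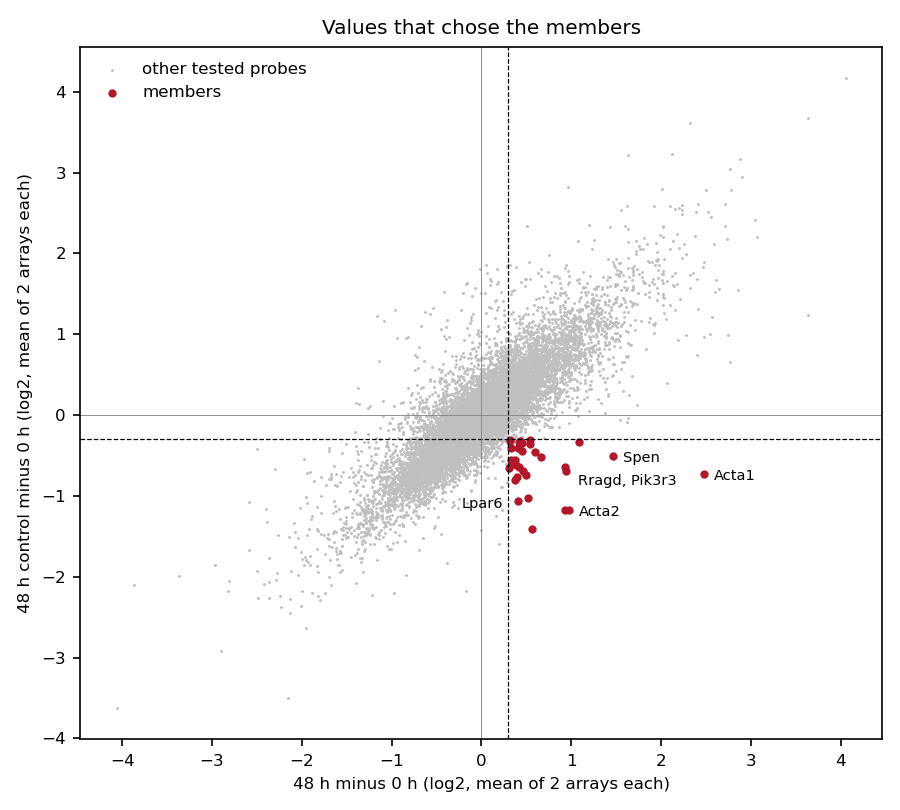
Difference of the 48 h mean from the 0 h mean (horizontal, log2) against the difference of the 48 h control from the 0 h mean (vertical, log2) for the 13974 tested probes, each mean over 2 arrays. Dashed lines mark the limits of 0.3 and -0.3, and the 33 chosen probes (red) fill the lower right corner, with Acta1 farthest to the right at 2.48.

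The probes nearest to the limits show how sharp the choice was. Zfp672 was just inside the limit on the rise (0.30 at 48 h). It was not well above background in the control, and 0 h was at least 1.49-fold above it. Emb, which encodes the cell-surface glycoprotein embigin, was just outside the limit (0.29 at 48 h, -0.35 in the control). Ankrd1 was just inside the limit on the control (0.32 and -0.31), and Cdkn1c, a cyclin-dependent kinase inhibitor, was just outside it (0.70 and -0.28). The choice of probes also rests on single arrays and on the processing. Of the 33 probes, 19 (for Acta1, all 4 of Acta2, both of Ccn1, Pik3r3, Rragd, Lpar6, Crabp2, Sall2, Tceal5, Tpm1, Ip6k2, H1f2, Cnn2, Map7d1 and Tnnt1) were chosen again with any 1 of the 16 arrays left out. Tmem260 and Ankrd1 were lost most often, each chosen again in 12 of the 16 cases. Values were not normalized anew, and the choice uses only the arrays of 0 h, 48 h and the control. Leaving out any other array could not change the choice, so most of the 16 cases could not lose a probe. Under all 8 alternatives of background, scaling and filter, 9 probes were chosen again: those of Acta1, Acta2, Pik3r3, Rragd and Lpar6 and 1 of Ccn1.

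Measured against 0 h, the rise began at different times. The only control is of 48 h, so the earlier times have no control of their own. For 15 probes, each of a different gene, the group mean was at least 0.3 above 0 h by 24 h or before and stayed there. It did so from 3 h for 5 probes (Spen, Lpar6, Dyrk1b, Tceal5 and Map7d1), from 6 h for 3 (Pik3r3, Sall2 and Zfp672), from 9 h for 2 (Rragd and Mknk2), from 12 h for 3 (Cxcl12, Ip6k2 and Tnnt1) and from 24 h for 2 (Tpm1 and Ttyh3). The 15 probes are 45.5% of the 33. Among the 2675 probes that were at least 0.3 above 0 h both at 48 h and in the control, 51.8% met the condition before 48 h. The remaining 18 probes, of 14 genes, met it at 48 h only, and 7 of the 9 genes of the actin group, all but Tnnt1 and Tpm1, are among them. Some of the 18 had been 0.3 above 0 h earlier without staying there: Acta1, Cnn2, Traf6 and Pomgnt2 at 3 h, and Anxa2, Traf6 and Ttc23 at 12 h.

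**Figure D2:**
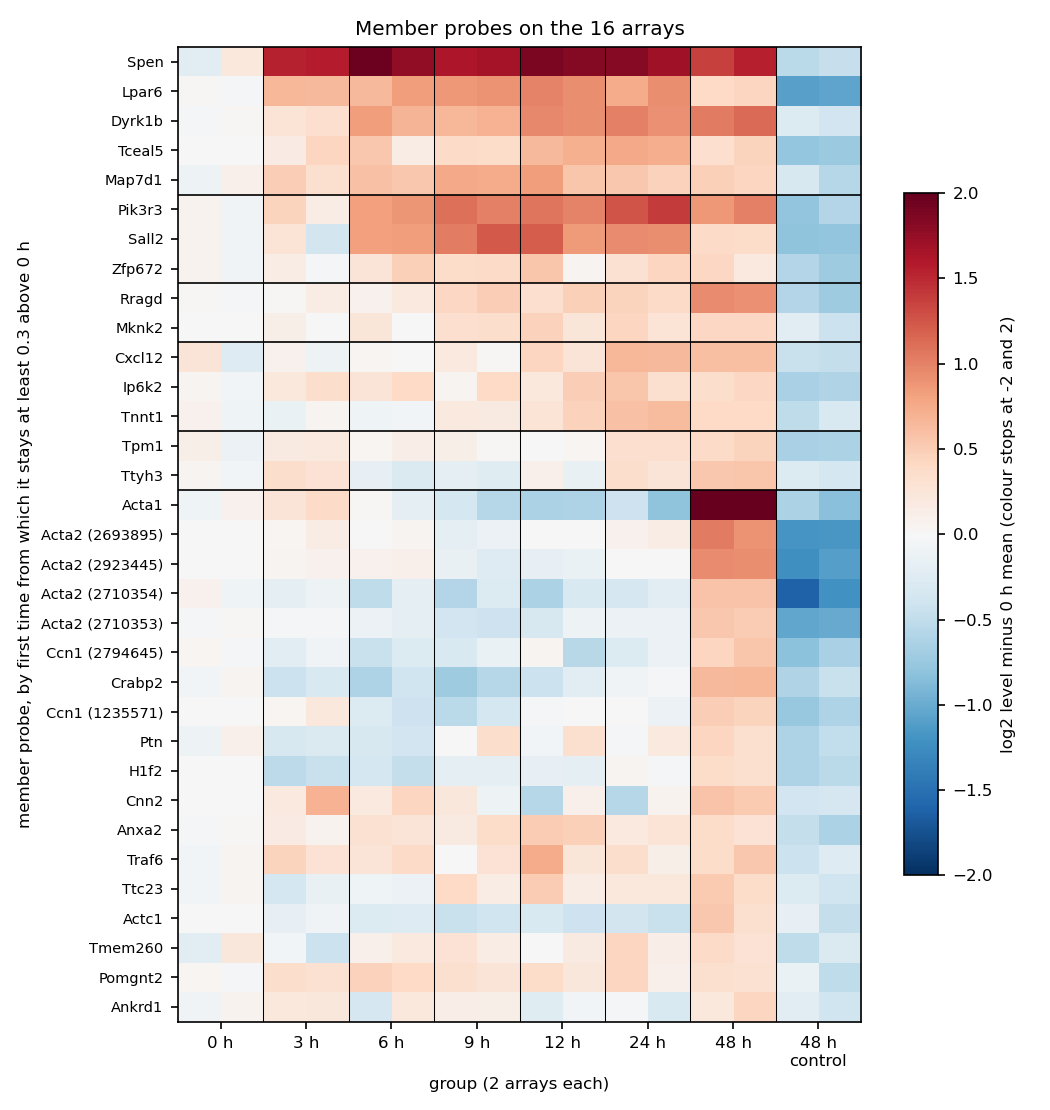
Log2 level of each of the 33 probes (rows) on each of the 16 arrays (columns, 2 per group), minus the probe's 0 h mean; red is above and blue below 0 h. Rows are ordered by the first time from which the mean stayed at least 0.3 above 0 h, with lines between the times, so that the 5 probes from 3 h are at the top and the 18 probes that met this condition at 48 h only are at the bottom.

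A second definition, the first time from which both arrays stayed above both 0 h arrays, gave 11 probes from 3 h, 1 from 6 h, 2 from 9 h, 2 from 12 h, 4 from 24 h and 13 at 48 h. The same count was not made for other probes, so nothing about the 33 is read from it. At 24 h the mean of 10 probes was below that of 0 h. Conversely, 10 probes were at least as high at 24 h as at 48 h. In all, 13 of the 33 probes (39.4%) had their highest mean before 48 h. Among the 2675 probes raised at 48 h and in the control, this share was 8.86%. Their rise at 48 h was larger, with medians of 0.70 and 0.69 above the 0 h mean on the 48 h arrays against 0.47 and 0.45 for the 33 probes, and the difference between the shares was not tested. The median of the 33 probes above the 0 h mean was 0.15 and 0.14 on the 3 h arrays, 0.09 and 0.14 at 6 h, 0.17 and 0.15 at 9 h, 0.21 and 0.17 at 12 h, 0.33 and 0.22 at 24 h, and -0.59 and -0.57 in the control.

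The change inside the induced course was tested on the arrays of 3 to 24 h. From 3 to 24 h, 11 of the 33 probes rose and 2 fell (limma, adjusted p under 0.05 over all tested probes), beside 14.1% of all tested probes that rose and 12.9% that fell. The 11 were Pik3r3, Sall2, Cxcl12, Dyrk1b, Tnnt1, Tmem260, H1f2, Ttc23, Tceal5, Rragd and Crabp2, and the 2 that fell were Acta1 and Cnn2. The median difference of the 33 probes was 0.16, against -0.01 over all tested probes. Among the 2675 probes raised at 48 h and in the control, 42.2% rose from 3 to 24 h, with a median of 0.27, against 33.3% of the 33. Without the first 24 h array 7 probes passed in place of 13 (6 rose and 1 fell). Calls for Acta1, Cxcl12, Dyrk1b, H1f2, Pik3r3, Sall2 and Tnnt1 remained with any 1 array left out.

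Steps within this course were tested in the same fit. From 3 to 12 h, 8 probes rose and 2 fell, beside 4.84% and 3.84% of tested probes. Those that rose were Pik3r3, Rragd, Dyrk1b, Sall2, H1f2, Anxa2, Tnnt1 and Ttc23, and those that fell were Acta1 and Ttyh3. Without the first 3 h array 4 probes passed, and 6 passed without the second 3 h array or without the second 12 h array. From 3 to 6 h, 3 rose (Pik3r3, Dyrk1b and Sall2) and 2 fell (1 probe of Ccn1, and Ttyh3), beside 1.57% and 0.988%; 0 passed without the second 3 h array, 3 without the first and 1 without the one or the other 6 h array. From 12 to 24 h, 0 of the 33 were called in either direction by limma, beside 2.53% of tested probes that rose and 1.94% that fell. An unadjusted p under 0.05 was found for 8 of the 33, beside 2804 of the 13974 tested probes. From 6 to 9 h, 0 were called, beside 0.0143% and 0.0358%, and 9 had an unadjusted p under 0.05, beside 1091 of the 13974. From 9 to 12 h, 0 were called, beside 0% and 0%, and 6 had an unadjusted p under 0.05, beside 1149 of the 13974.

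**Figure D3:**
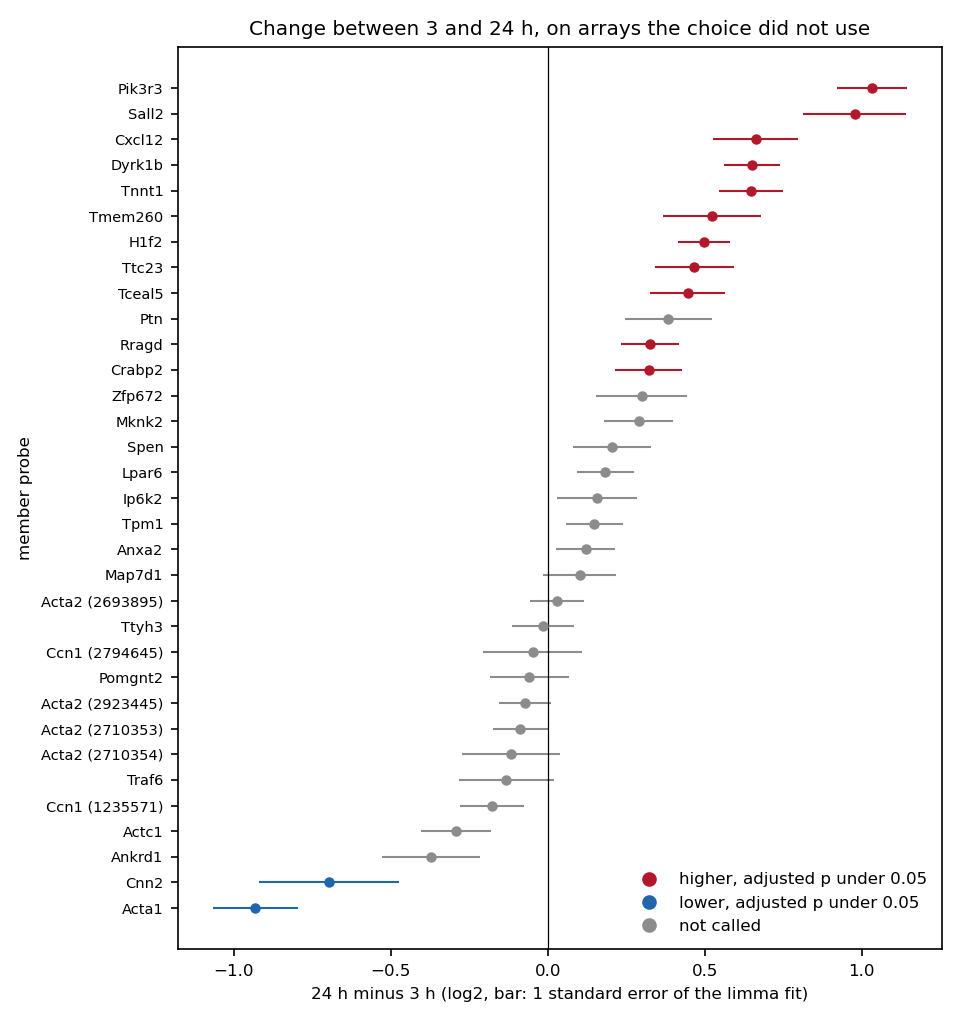
Log2 difference between 24 and 3 h for each of the 33 probes (points), with 1 standard error of the limma fit (bars). Red points rose and blue points fell at an adjusted p under 0.05: Pik3r3 is highest at 1.03 and Acta1 lowest at -0.93, and all 4 probes of Acta2 lie near 0.

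The probe of Acta1 (ILMN_2738825), skeletal muscle alpha-actin, had the highest value at 48 h relative to 0 h. Its log2 level was 7.39 and 7.55 on the 0 h arrays, 7.73 and 7.86 at 3 h, 7.50 and 7.29 at 6 h, 7.13 and 6.91 at 9 h, 6.85 and 6.86 at 12 h, 7.05 and 6.67 at 24 h, 10.05 and 9.85 at 48 h, and 6.84 and 6.64 in the control. All arrays of 9 to 24 h were below the 0 h arrays, and only the 48 h arrays stood far above them. The level fell by 0.93 from 3 to 24 h (SE 0.14, limma, adjusted p = 2.0e-04) and by 0.94 from 3 to 12 h (SE 0.14, limma, adjusted p = 6.7e-04). At 48 h the mean was 5.57-fold that of 0 h and 9.24-fold that of the control.

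Acta2, smooth muscle alpha-actin, was the only gene with 4 of its probes among the 33, and all 4 were highest at 48 h and lowest in the control. The brightest (ILMN_2693895) was at 10.38 and 10.42 at 0 h and stayed between 10.20 and 10.55 on the 10 arrays of 3 to 24 h. It then reached 11.44 and 11.31 at 48 h and was 9.21 and 9.23 in the control. The induced course of this probe was flat to 24 h. Its 48 h arrays lay above every earlier array and its control arrays lay below all others. The other probes dipped in between: at 9 h their means differed from 0 h by -0.43 (ILMN_2710354), -0.40 (ILMN_2710353) and -0.20 (ILMN_2923445). Over the 4 probes the log2 difference from 0 h was 0.52 to 0.97 at 48 h and -1.02 to -1.41 in the control. None of the 4 passed the test between 3 and 24 h, with differences of -0.12 to 0.03 and adjusted p from 0.50 to 0.84 (limma).

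Actc1, cardiac alpha-actin (ILMN_2598916), was the dimmest of the 33. Arrays of 0 h (5.15 and 5.14) and of 48 h (5.69 and 5.46) detected it. It was not well above background on any array of 3 to 24 h or of the control. The coding sequences of the muscle actins are nearly identical, so it is uncertain how far each actin probe reads the others' transcripts.

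Other actin-binding genes differed in timing. The tropomyosin Tpm1 (ILMN_3007072), which winds along actin filaments, was at 10.64 and 10.42 at 0 h, 10.54 to 10.73 from 3 to 12 h, 10.87 and 10.88 at 24 h, 10.92 and 10.98 at 48 h and 9.88 and 9.90 in the control. Only the control arrays stood well apart. Cnn2 (ILMN_2596369), calponin 2, was at 5.56 and 5.58 at 0 h, 5.77 and 6.26 at 3 h, 4.99 and 5.64 at 24 h, 6.15 and 6.09 at 48 h, and 5.19 and 5.23 in the control. Its fall of 0.70 from 3 to 24 h (SE 0.22, limma, adjusted p = 0.033) was lost without the second 3 h array (adjusted p = 0.25) or the first 24 h array (adjusted p = 0.31). The first 12 h array and the first 24 h array did not detect it.

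Tnnt1 (ILMN_2460136), the slow skeletal form of troponin T, was the one gene of the actin group that rose from 3 to 24 h by the test. Its level was 9.05 and 8.88 at 0 h, 8.83 and 9.02 at 3 h, 9.16 and 9.15 at 9 h, 9.24 and 9.42 at 12 h, 9.55 and 9.60 at 24 h, 9.37 and 9.37 at 48 h, and 8.46 and 8.66 in the control. The 24 h arrays were the highest, and the control arrays the lowest. The rise from 3 to 24 h was 0.65 (SE 0.10, limma, adjusted p = 4.2e-04).

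Ccn1, a secreted matrix-associated protein, had 2 probes among the 33. The brighter (ILMN_2794645) was at 7.79 and 7.71 at 0 h, between 7.20 and 7.81 from 3 to 24 h, 8.18 and 8.31 at 48 h, and 6.93 and 7.10 in the control. The dimmer probe (ILMN_1235571) fell by 0.46 from 3 to 6 h (SE 0.10, limma, adjusted p = 0.027). Ankrd1 (ILMN_2625451), an ankyrin repeat protein of heart muscle and another Yap target, was dim (5.32 and 5.46 at 0 h, 5.59 and 5.82 at 48 h, 5.18 and 4.98 in the control). Anxa2 (ILMN_2657175), a calcium-dependent membrane-binding annexin, was the brightest of the 33 and was highest at 12 h. It was at 10.49 and 10.55 at 0 h, 11.04 and 11.00 at 12 h, 10.90 and 10.81 at 48 h, and 10.05 and 9.90 in the control. It rose by 0.38 from 3 to 12 h (SE 0.09, limma, adjusted p = 0.022).

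For context, 36 actin, SRF and Yap genes were looked up after the values had been seen, and 31 had a probe. Outside the 33, they gave 28 tested probes of 20 genes. Of these, 10 were above 0 h at 48 h and below it in the control at any size, 9 were above in both, 9 were below in both and 0 were below at 48 h and above in the control. The 10 include 3 other probes of genes already among the 29 (Ankrd1, Ccn1 and Cnn2); of the 25 probes of the remaining 17 genes, 7 were above at 48 h and below in the control. Over all tested probes the shares were 8.80%, 38.7%, 44.4% and 8.02%. These shares are of measured values, whether or not a probe was detected. Actg2, smooth muscle gamma-actin, which is counted among the 10, was level with 0 h at 48 h (means of 6.30 at both times). It was not well above background in the control, and 0 h was at least 2.34-fold above it. For Srf, 1 probe (ILMN_2988299) differed from 0 h by 0.52 at 48 h and by -0.05 in the control. The other (ILMN_1242533), detected on 3 of 16 arrays and on neither control array, differed from it by -0.28 at 48 h. The cytoplasmic actin gene Actb had 5 tested probes that disagreed: at 48 h they differed from 0 h by -0.26 to 0.90, and in the control by -0.60 to 1.02.

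**Figure D4:**
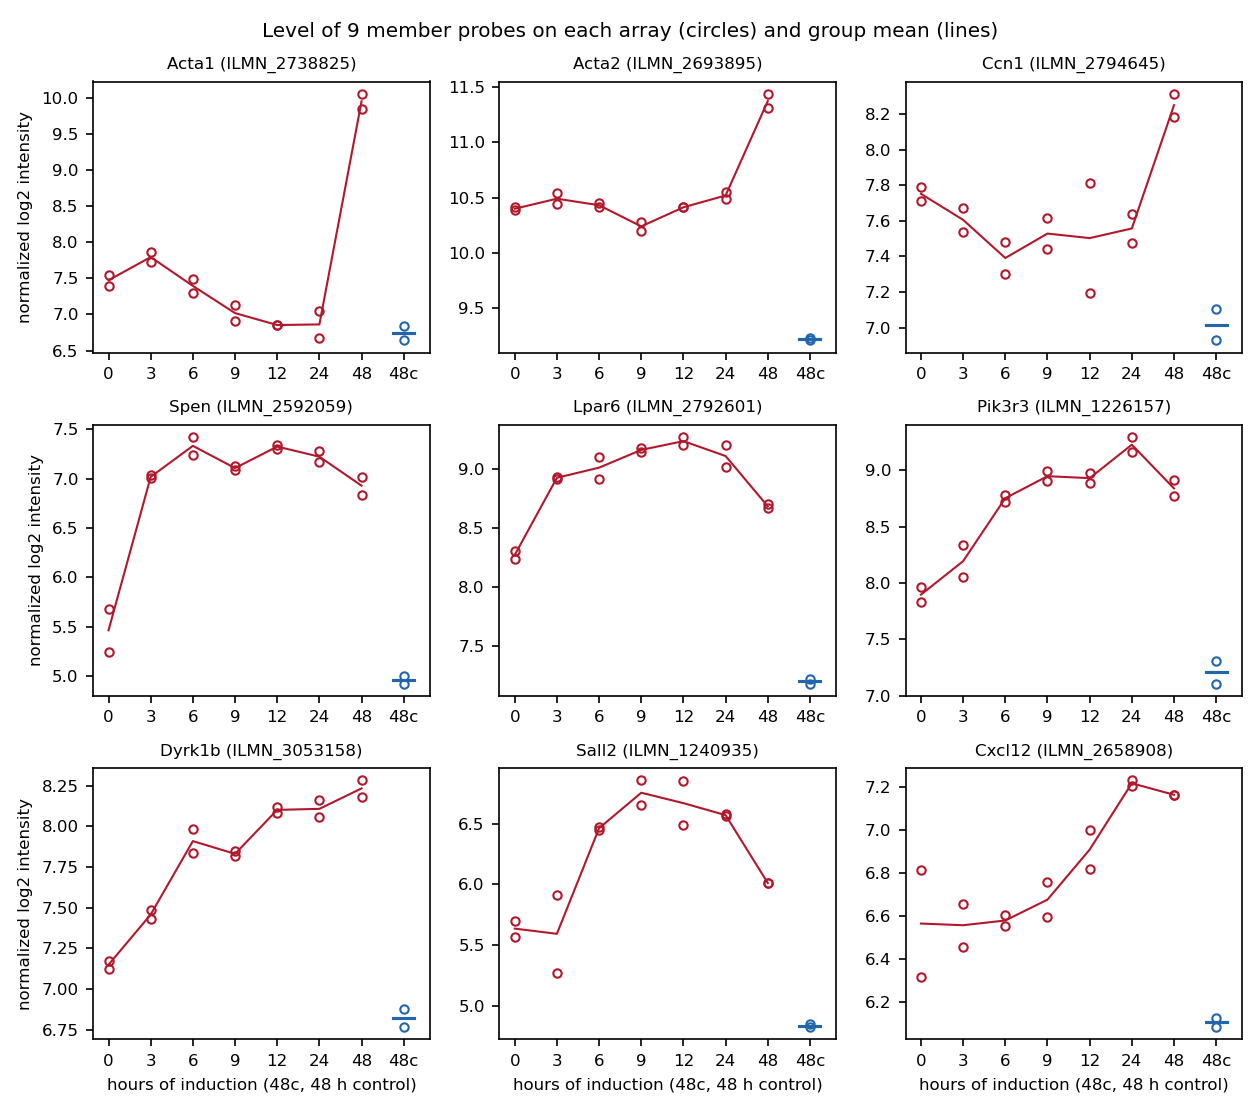
Normalized log2 intensity of 9 of the 33 probes (panels, chosen after their values were seen to show different courses) on each array (circles) and as group mean (line), against hours of induction, with the 48 h control at the right in blue. Acta1, Acta2 and Ccn1 are highest at 48 h only, Spen and Lpar6 are above 0 h from 3 h, and Pik3r3, Dyrk1b, Sall2 and Cxcl12 climb between 3 and 24 h.

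Of 10 genes of signalling pathways, grouped after the members were known, 7 stayed at least 0.3 above 0 h from a time before 48 h, and of the 9 genes of the actin group 2 did. By the definition on both arrays the counts were 8 of 10 and 4 of 9. Over all 33 probes, 18 met the first definition and 13 the definition on both arrays at 48 h only. The latter was not counted for other probes. The groups are small, and the difference between them was not tested. Pik3r3 (ILMN_1226157), a regulatory subunit of phosphoinositide 3-kinase, was at 7.97 and 7.83 at 0 h, 8.34 and 8.05 at 3 h, 8.72 and 8.78 at 6 h, 8.99 and 8.90 at 9 h, 8.97 and 8.89 at 12 h, 9.16 and 9.29 at 24 h, 8.77 and 8.91 at 48 h, and 7.11 and 7.31 in the control. Every induced array from 3 h was above the 0 h arrays, and the control arrays were below them. The level rose by 1.03 from 3 to 24 h, or 2.05-fold (SE 0.11, limma, adjusted p = 1.9e-05), the highest rise among the 33. It had already risen by 0.56 from 3 to 6 h (SE 0.11, limma, adjusted p = 0.018).

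Dyrk1b (ILMN_3053158), a dual-specificity kinase of the Dyrk family, was at 7.12 and 7.17 at 0 h, 7.43 and 7.49 at 3 h, 7.98 and 7.83 at 6 h, 8.12 and 8.08 at 12 h, 8.16 and 8.06 at 24 h, 8.18 and 8.28 at 48 h, and 6.88 and 6.77 in the control. It rose by 0.65 from 3 to 24 h (SE 0.09, limma, adjusted p = 1.2e-04) and by 0.45 from 3 to 6 h (SE 0.09, limma, adjusted p = 0.016). Unlike Pik3r3, its highest arrays were those of 48 h.

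Rragd (ILMN_2775202) encodes a Rag GTPase that brings mTORC1, the nutrient-sensing kinase complex, to the lysosome. Its level was 7.60 and 7.56 at 0 h, 7.60 and 7.73 at 3 h, 7.997 and 8.07 at 9 h, 8.02 and 7.96 at 24 h, 8.53 and 8.50 at 48 h, and 6.9998 and 6.86 in the control. The 9 h arrays lay above all earlier arrays, and the 48 h arrays above all others. The rise of 0.33 from 3 to 24 h (SE 0.09, limma, adjusted p = 0.017) was lost without the first 3 h array (adjusted p = 0.12) or the first 24 h array (adjusted p = 0.0995).

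Lpar6 (ILMN_2792601), a receptor for lysophosphatidic acid, was at 8.30 and 8.24 at 0 h, 8.93 and 8.91 at 3 h, 9.27 and 9.20 at 12 h, 9.02 and 9.19 at 24 h, 8.67 and 8.70 at 48 h, and 7.18 and 7.22 in the control. All induced arrays were above the 0 h arrays, and at 48 h both arrays were below every array of 3 to 24 h. Between 12 and 3 h the difference was 0.31 (limma, adjusted p = 0.051). The difference of 0.18 between 24 and 3 h did not pass the test (limma, adjusted p = 0.16).

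Cxcl12 (ILMN_2658908), the chemokine ligand of Cxcr4, was at 6.82 and 6.31 at 0 h, 6.66 and 6.46 at 3 h, 7.001 and 6.82 at 12 h, 7.23 and 7.21 at 24 h, 7.16 and 7.17 at 48 h, and 6.13 and 6.08 in the control. The 0 h arrays lay far apart, with the first close to the 12 h arrays. From 3 to 24 h it rose by 0.66 (SE 0.14, limma, adjusted p = 0.0025). Crabp2 (ILMN_1214483), which carries retinoic acid to its nuclear receptors, was at 7.07 and 7.19 at 0 h, 6.70 and 6.83 at 3 h, 7.06 and 7.11 at 24 h, 7.78 and 7.79 at 48 h, and 6.53 and 6.69 in the control. Both 3 h arrays lay below the 0 h arrays, and its rise of 0.32 from 3 to 24 h (SE 0.11, limma, adjusted p = 0.038) was lost without any 1 of the 3 h or 24 h arrays (adjusted p of 0.059 to 0.20).

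Smaller differences were measured for the remaining signalling genes. Mknk2, a kinase of the translation factor eIF4E, was at 8.59 on both 0 h arrays, 9.01 and 9.00 at 48 h, and 8.36 and 8.16 in the control. Ip6k2, an inositol hexakisphosphate kinase, was at 6.14 and 6.03 at 0 h, 6.44 and 6.49 at 48 h, and 5.44 and 5.49 in the control. Neither passed the test between 24 and 3 h (limma, adjusted p = 0.066 and 0.40). Ptn, the secreted growth factor pleiotrophin, was detected on 6 of 16 arrays, including 1 of 0 h, both of 48 h and none of the control.

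Traf6, an adaptor and ubiquitin ligase of the Toll-like receptor pathway, had 3 tested probes that disagreed. The chosen probe (ILMN_2427560) had group means of 6.55 at 0 h, 6.999 at 48 h and 6.20 in the control. Another (ILMN_1259162) was at 6.91, 5.80 and 6.21, so it was lower at 48 h. The last (ILMN_2960750) was at 7.59, 7.96 and 7.32.

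Of 5 genes of nuclear proteins, 4 were above 0 h by this measure before 48 h, and Spen (ILMN_2592059) had the highest 3 h level relative to 0 h among the 33. Spen is a large RNA-binding protein that recruits transcriptional repressors. Its level was 5.24 and 5.68 at 0 h, 7.002 and 7.03 at 3 h, 7.42 and 7.24 at 6 h, 7.08 and 7.13 at 9 h, 7.35 and 7.30 at 12 h, 7.28 and 7.17 at 24 h, 6.84 and 7.02 at 48 h, and 4.92 and 5.002 in the control. The 3 h mean was 1.55 above 0 h on the log2 scale, and later arrays stayed on that plateau. Neither control array detected the probe, and 48 h was at least 3.62-fold above the control. The difference of 0.20 between 24 and 3 h did not pass the test (limma, adjusted p = 0.25).

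Sall2 (ILMN_1240935), a zinc finger transcription factor, was at 5.70 and 5.57 at 0 h, 5.91 and 5.27 at 3 h, 6.45 and 6.47 at 6 h, 6.65 and 6.86 at 9 h, 6.85 and 6.48 at 12 h, 6.58 and 6.56 at 24 h, 6.01 and 6.01 at 48 h, and 4.83 and 4.85 in the control. The 48 h arrays lay below every array of 6 to 24 h but above both 0 h arrays. It rose by 0.98 from 3 to 24 h (SE 0.16, limma, adjusted p = 6.5e-04) and by 0.87 from 3 to 6 h (SE 0.16, limma, adjusted p = 0.013). Neither control array detected it, and 48 h was at least 1.91-fold above the control.

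H1f2 (ILMN_2855315), a linker histone, first lay below 0 h. It was at 8.29 and 8.26 at 0 h, 7.76 and 7.83 at 3 h, 8.12 and 8.11 at 12 h, 8.33 and 8.26 at 24 h, 8.64 and 8.59 at 48 h, and 7.66 and 7.74 in the control. It rose by 0.50 from 3 to 24 h (SE 0.08, limma, adjusted p = 6.2e-04). Linker histone genes are close copies of each other, so part of this signal could come from another copy. Tceal5, a member of a family related to an elongation factor, was at 6.75 and 6.78 at 0 h, 6.93 and 7.20 at 3 h, 7.52 and 7.50 at 24 h, 7.10 and 7.21 at 48 h, and 5.98 and 6.02 in the control. Its rise of 0.45 from 3 to 24 h (SE 0.12, limma, adjusted p = 0.013) was lost without the first 3 h array (adjusted p = 0.13) or either 24 h array (adjusted p = 0.066 and 0.053).

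Zfp672, a zinc finger protein, was at 5.72 and 5.57 at 0 h, 6.07 and 5.83 at 48 h, and 5.05 and 4.94 in the control, where it was not well above background. Tmem260, a membrane protein, and Ttc23, a tetratricopeptide repeat protein of cilia, rose from 3 to 24 h by 0.52 (SE 0.16, limma, adjusted p = 0.023) and by 0.47 (SE 0.12, limma, adjusted p = 0.013). Tmem260 lost the call without the second 3 h array (adjusted p = 0.21) or the first 24 h array (adjusted p = 0.18). Ttc23 lost it without the first 3 h array (adjusted p = 0.11) or either 24 h array (adjusted p = 0.059 and 0.061).

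Map7d1, a microtubule-binding protein, was above 0 h from 3 h (9.60 and 9.80 at 0 h, 10.18 and 10.02 at 3 h, 10.17 and 10.13 at 48 h, 9.38 and 9.12 in the control). Pomgnt2, a glycosyltransferase that modifies dystroglycan, was at 7.45 and 7.37 at 0 h, 7.74 and 7.72 at 48 h, and 7.28 and 6.90 in the control. Ttyh3, a membrane protein of the tweety family, was detected by both arrays of 3 h and by no array of 6 h. It was at least 1.32-fold higher at 3 h than at 6 h (limma, adjusted p = 0.010), and both 48 h arrays detected it (5.70 and 5.72).

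The median brightness of the 33 probes was near that of all tested probes. Their mean log2 level over the 10 arrays of 3 to 24 h had a median of 7.20 (4.83 to 10.80). Over all tested probes it was 7.11 (4.49 to 14.52), and 19 of the 33 were above that median. The quartiles of the 33 were 6.41 and 8.03, against 5.62 and 8.97, so they lay closer to the middle. On all 16 arrays 23 probes (69.7%) were detected, against 75.9% of tested probes. The median SD between the 2 arrays of a group was 0.12 for both. Both arrays of the group detected 31 of the 33 probes at the start and 29 or 30 at each time from 3 to 24 h. All 33 were detected by both arrays of 48 h, and 25 by both of the control, against 85.6% and 86.1% of tested probes. The probes were chosen as high at 48 h and low in the control, so nothing is read from this contrast. The 6 detected on neither control array were Spen, Sall2, Zfp672, Ptn, Ttyh3 and Actc1.

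**Figure D5:**
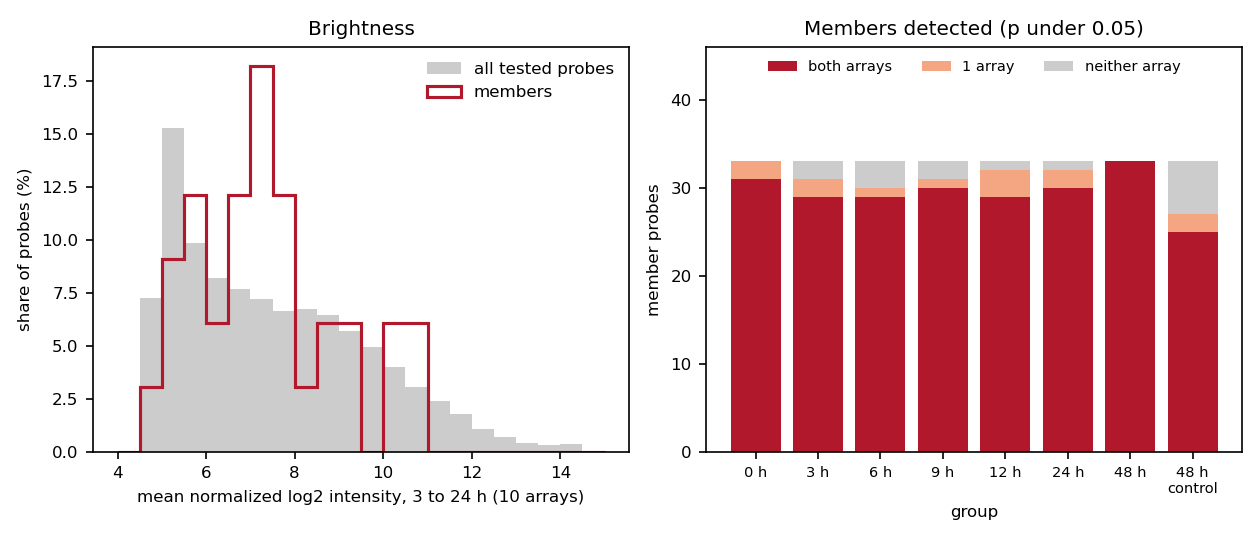
Left, share of probes (percent) by mean normalized log2 intensity over the 10 arrays of 3 to 24 h, for all 13974 tested probes (grey) and the 33 chosen (red outline), with medians of 7.11 and 7.20. Right, number of the 33 probes detected on both, 1 or neither array of each group, which is 33 on both arrays at 48 h and 25 in the control.

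The genes of the 33 probes had 18 other probes on the array, of which 9, from 7 genes, were tested. Of these, 7 were above 0 h at 48 h and below it in the control at any size, as were 8.8% of all tested probes. The exceptions were the Traf6 probe given above and 1 of Map7d1 (ILMN_1238058), which differed from 0 h by -0.08 at 48 h and by -0.60 in the control. The second probe of Ankrd1 (ILMN_2950286) was at 6.77 at 0 h, 7.05 at 48 h and 6.11 in the control. The second probe of Cnn2 (ILMN_1226666) differed from 0 h by 0.62 at 48 h but by -0.01 in the control. That of Ip6k2 (ILMN_3132262) differed from 0 h by 0.01 at 48 h and by -0.41 in the control. A Pomgnt2 probe (ILMN_3074279), detected on 2 of 16 arrays, differed by 0.13 and by -0.04. These probes share their arrays with those that chose the genes.

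Of 15 gene lists drawn up for this series, 14 held none of the 29 genes. The exception is Acta2 on the fibroblast marker list. Among the 29 tested probes of E2F targets and DNA replication, 1 rose and 6 fell from 3 to 24 h, with a median of -0.17. Of 24 probes of cell cycle inhibitors and p53 targets, 12 rose and 2 fell, with a median of 0.27. Of 7 probes of the p300, CBP and RB family genes, 2 rose and 2 fell, with a median of -0.28. Over all tested probes 14.1% rose and 12.9% fell, with a median of -0.01. These list counts cover the change from 3 to 24 h only. They say nothing of changes before 3 h or of levels against 0 h or the control.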

How the data were processed

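Total RNA of 16 samples was measured on single-colour Illumina bead arrays, 1 array per sample, in 8 groups of 2 taken from the sample titles. Biotin-labelled cRNA was made from DNA-free RNA, per the labels' protocols. The authors deposited a table of probe intensities called non-normalized, with a detection p-value per probe and array. They also deposited a table of log2 values, which equalled an RMA background correction, quantile normalization and log2 of those intensities to within 0.011. RMA, lumi and BeadStudio 3.2 are listed in the submitters' processing notes without their roles.

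From the intensities, background was corrected with limma 3.58.1 (R 4.3.3) by neqc, with detection p-values as the guide to background, an offset of 16, quantile normalization and log2. The offset shrinks differences at low intensity. Tests were limited to the 13974 of 25697 probes that 2 or more arrays detected (p-value under 0.05). A single limma fit with 1 coefficient per group (8 residual and 6.30 prior degrees of freedom) used all arrays, and p-values were adjusted by Benjamini-Hochberg over all tested probes, with a threshold of 0.05. Where neither array of a group detected a probe, it counts as not well above background in that group. Its fold is then a bound, against the higher of its own value and the lowest value among detected probes on each array.

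Gene names came from the platform annotation, which gave 1 symbol for 23978 probes and none for 1719, updated through RefSeq. The annotation gives no build for the probes, so no probe position is printed. Named in full were the members with the 10 largest differences between 48 h and its control, up to 8 per direction of those called between 24 and 3 h, those nearest each limit, the 3 brightest and those in a list. Other members are named too, chosen after their values were seen. The members and the lists were chosen with earlier results of these data known. Replicate numbers 1 and 2 recur in each group with no statement of pairing, so the fit has no block. The procedure was tested on simulated data. Precision is limited by 2 arrays per group, and the median standard error of a difference between 24 and 3 h was 0.12.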

Additional observations from a re-analysis of the deposited data

How the results depend on the processing

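Of 923 recomputed values, 857 kept their direction and their side of the threshold, or stayed within 1.5 times the main count or 1 SD of the main median. With 1 array left out, values were not normalized anew. An array outside a comparison could then change only the spread of the fit, and 1 outside the rule could not change the choice. The 857 therefore include values that could not differ. Of the 13 calls between 24 and 3 h, 6 were lost on leaving out at least 1 array. Between 24 and 3 h, 13 of the 33 probes were called; 7 were called at an adjusted p under 0.01 and 7 to 14 with 1 array left out. Between 12 and 3 h, 10 were called; 6 under median scaling, 5 at the stricter p and 4 to 11 with 1 array left out. Between 6 and 3 h, 5 were called; 0 at the stricter p and 0 to 5 with 1 array left out. Between 24 and 12 h, 0 were called; 3 without background correction, 1 under an offset of 50, no filter, the stricter filter or an intensity trend with robust moderation, and 0 to 1 with 1 array left out. The median difference of 24 and 3 h was 0.16; it was 0.11 without background correction, 0.19 under cyclic loess or in the deposited value table, and 0.14 to 0.18 with 1 array left out. The number of probes meeting the rule was 13 without background correction, 19 under an offset of 50, 78 in the deposited value table, 80 at a limit of 0.2 and 9 at a limit of 0.5, and 30 to 38 with 1 array left out. Of these, 5, 9, 32, 42 and 2 in that order were above 0 h before 48 h, against 15 in the main processing and 11 to 18 with 1 array left out. A higher offset and no background correction both compress dim values by construction; otherwise the cause was not tested. The brightest Acta2 probe, uncalled at 0.03 between 24 and 3 h, was at -0.023 under median scaling and ranged from -0.023 to 0.081 with 1 array left out, below 0 without the first 3 h array or the second 24 h array (-0.0052). Among named probes, 28 recomputed values lost their call and 2 (Ankrd1 without either 6 h array, adjusted p = 0.037) gained one. Same-numbered arrays of different groups correlated in their deviations at -0.07 to 0.29, over 0.1 in 16 of 28 pairs of groups, and 14 of 16 arrays were closest to their own number. In a fit with the replicate block, 16 probes were called between 24 and 3 h, 13 between 12 and 3 h and 1 between 24 and 12 h. The share of all tested probes called was not counted for the alternatives. The higher numbers are thus not read as a result about the 33.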
